A study of Rattus norvegicus with 8 samples.

Results

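Stc1 and Stc2, the 2 stanniocalcin genes of the rat, were followed in alveolar type II (ATII) cells given an adenovirus for constitutively active HIF1a. Each gene was represented by 1 probe set, the only one on the array whose annotation gave that single symbol (17699814 for Stc1 and 17644862 for Stc2), among 18166 measured genes. Both genes were chosen by name, with the size of their mean difference between the viruses already known. Their values in that comparison are therefore given as a description, without a test.

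The ATII cells, which make surfactant and line the alveoli, were freshly isolated from 4 male Sprague Dawley rats, 1 rat on each of 4 extraction days, so rat and extraction day cannot be told apart. From each rat, 1 well received AdHIF1a, an adenovirus for a constitutively active mutant of HIF1a, and 1 well received the control virus AdGFP, which carries green fluorescent protein. The sources used here do not give the animals' age, the promoter in the viruses or the species of the HIF1a sequence. Every well was exposed to virus (multiplicity of infection 20) over 3 h in DMEM containing 2% FBS. The cells were then plated on 80% rat tail collagen mixed with 20% Matrigel, in DMEM to which 5% rat serum had been added, and lysed for RNA 24 h later.

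Stanniocalcins are secreted, disulfide-linked glycoprotein dimers named after the corpuscles of Stannius of bony fish, where the hormone lowers calcium uptake. In mammals both proteins act mostly within tissues and both bind and inhibit PAPP-A, the protease that frees insulin-like growth factors (IGFs) by cutting their binding proteins. STC1 has also been linked to uncoupling protein in mitochondria, and STC2 to store-operated calcium entry and to the PERK and ATF4 arm of the response to stress in the endoplasmic reticulum. Both genes are known in human cells as hypoxia-responsive genes.

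Stc1 gave low signals in the AdGFP wells and high signals in the AdHIF1a wells of all 4 rats. On the log2 scale of the array, its AdGFP signals were 5.41, 5.27, 5.06 and 5.08 in rats 1 to 4. Its AdHIF1a signals were 10.59, 10.74, 10.51 and 10.87. The lowest AdHIF1a well lay far above the highest AdGFP well, and the order of the rats was not the same under both viruses. The within-rat differences, AdHIF1a minus AdGFP, were 5.18, 5.47, 5.45 and 5.79, which correspond to 36.3-, 44.3-, 43.7- and 55.3-fold. Their mean was 5.47 ± 0.25 (SD, n = 4 rats).

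The AdGFP signals of Stc1 were close to the middle of the array. They differed by 0.28, 0.27, -0.01 and 0.04 from the median of all probe sets in the same wells of rats 1 to 4. The files hold no detection calls, so a signal there cannot be told from background, and the fold of Stc1 is not an exact size. In the AdHIF1a wells Stc1 lay 2.86 to 3.19 above the upper quartile of all probe sets.

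Stc2, the paralogous stanniocalcin, was also higher in the AdHIF1a well of every rat. Its AdGFP signals were 6.46, 6.5, 6.87 and 6.75 in rats 1 to 4, and its AdHIF1a signals were 10.40, 9.69, 10.08 and 10.07. The groups did not overlap, with the lowest AdHIF1a well in rat 2 and the highest in rat 1. The within-rat differences were 3.94, 3.19, 3.21 and 3.32, or 15.3-, 9.13-, 9.25- and 9.99-fold, with a mean of 3.42 ± 0.35 (SD, n = 4 rats). Unlike Stc1, Stc2 started clearly above the array median, by 1.33 to 1.80 in the AdGFP wells.

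**Figure D1:**
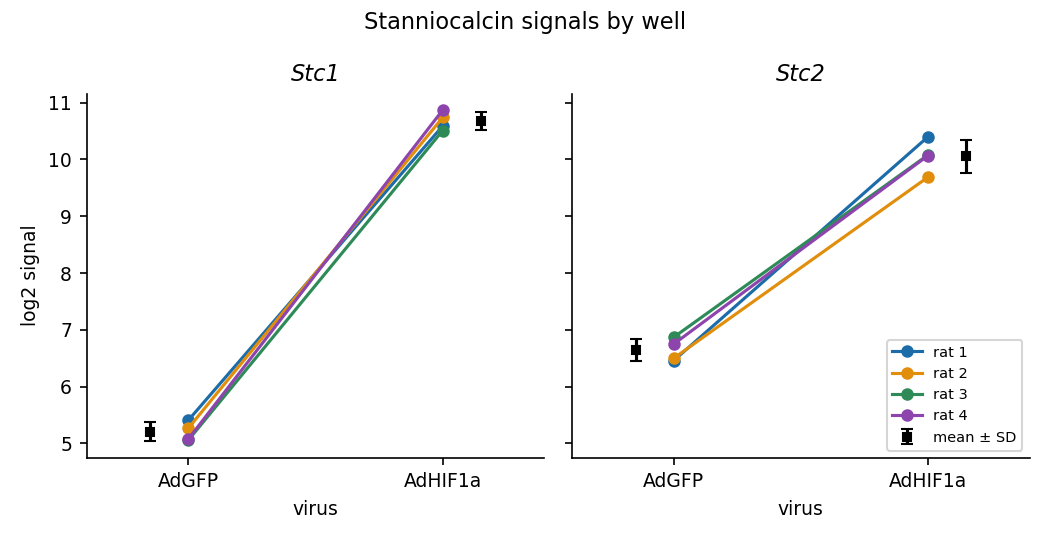
Log2 signals (vertical axis) of Stc1 (left) and Stc2 (right) in the AdGFP and AdHIF1a wells, with 1 coloured line per rat and black squares for the mean ± SD of 4 rats. All lines rise, from 5.06 to 5.41 up to 10.51 to 10.87 for Stc1, and from 6.46 to 6.87 up to 9.69 to 10.40 for Stc2.

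The change of Stc1 exceeded that of Stc2 in each rat, by 1.24, 2.28, 2.24 and 2.47 on the log2 scale (mean 2.06 ± 0.55, SD, n = 4 rats). Rat 1 stood apart here, with the smallest change of Stc1 and the largest change of Stc2. Both changes come from the comparison that chose the genes, so this gap was not tested. Levels of the 2 genes are not compared, since each probe set has its own brightness.

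Ranked by mean difference, Stc1 was in place 2 and Stc2 in place 18 of 18166 genes. Within single rats the place of Stc1 was 3, 2, 3 and 2, and that of Stc2 was 10, 25, 18 and 30, so that Stc2 moved more in the order than Stc1. Only 4 genes had a mean difference above 5 and 26 had one above 3. The gene just above Stc1 was Car12, a membrane carbonic anhydrase (5.94), and the gene just below was Tmem255b, a transmembrane protein gene (5.26). Stc2 lay between Serpinf1, which encodes pigment epithelium-derived factor (3.52), and Plod2, a lysyl hydroxylase of collagen (3.31).

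**Figure D2:**
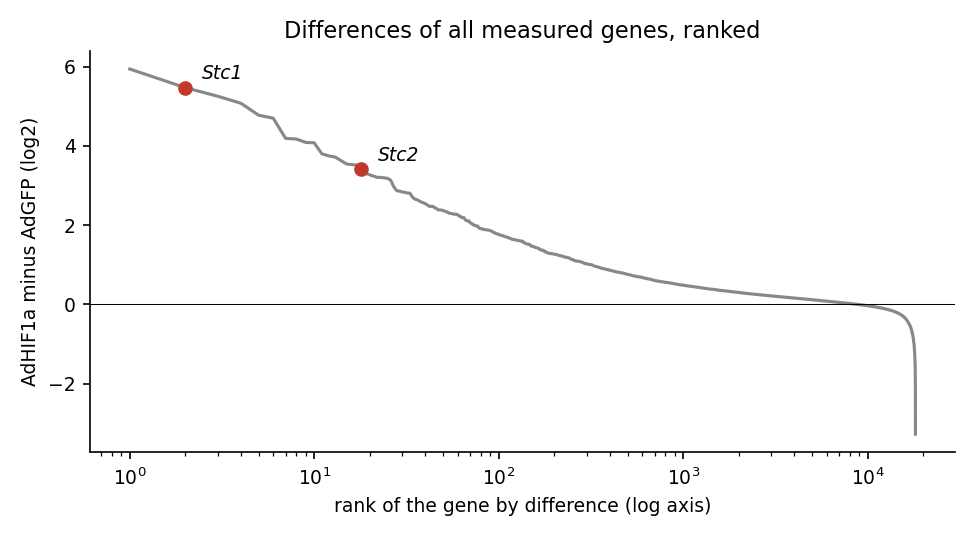
Mean difference AdHIF1a minus AdGFP in log2 units (vertical axis) of 18166 genes against their rank on a log axis. Red points mark Stc1 at rank 2 (5.47) and Stc2 at rank 18 (3.42), both on the steep left end of the curve.

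Differences between rats are independent of the virus comparison, since each rat gave 1 well of each virus, and they could be tested. The rat terms were tested together with a moderated F test in limma, fitted to all probe sets and adjusted over the 18166 genes. Neither stanniocalcin gene passed, with a limma adjusted p = 0.937 for Stc1 and 0.929 for Stc2. The test called 0 genes, or 0% of those tested, at an adjusted p under 0.05, and 1037 genes (5.71%) had an unadjusted p under 0.05. The SD over rats was 0.17 for Stc1 and 0.20 for Stc2 in AdGFP wells, where the median gene had 0.14. In AdHIF1a wells it was 0.16 for Stc1 and 0.29 for Stc2, where the median gene had 0.15.

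Genes whose 4 within-rat differences were closest to those of a stanniocalcin gene were sought by root mean square distance. For Stc1 the nearest were Tmem255b (0.495), Car12 (0.50), the transmembrane protein gene Tmem45a (0.66), the basic helix-loop-helix factor Ascl2 (0.73) and the epidermal gene Crct1 (0.79). Only 2 genes lay within 0.5 of Stc1. For Stc2 the nearest were the transcriptional corepressor gene Rcor2 (0.25), Kbtbd11 (0.27), the peptide ligand gene Apln (0.32), the carbonic anhydrase gene Car9 (0.34) and Ndrg2 (0.34), and 8 genes lay within 0.5. Car9 (3.84), Rcor2 (3.69) and Kbtbd11 (3.63) had their largest difference in rat 1, as Stc2 did. Apln had its largest in rat 4 (3.86) and Ndrg2 in rat 3 (3.73). All were picked for being close to Stc2, so a shared rat is no separate result.

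Pearson correlation of the log2 signals over the 8 arrays ignores the size of a change, and shared Car12 and Ascl2 with the distance for Stc1 and Rcor2 for Stc2. The highest values for Stc1 were those of Car12 (r = 0.999), Ndrg2 (0.998), Ascl2 (0.998), the cyclin gene Ccny (0.998) and Ndrg1, a stress-responsive gene (0.997). For Stc2 they were those of Ppp1r3b, a glycogen-targeting phosphatase subunit (r = 0.997), Rcor2 (0.996), Mab21l3 (0.995), Mthfd1l, a mitochondrial folate enzyme (0.995), and Loxl2, a collagen cross-linking enzyme (0.994). The 8 arrays fall into 2 virus groups, so r largely reflects the gap between these groups. Stc1 had 42 genes above 0.99 and Stc2 had 22, while Stc1 and Stc2 correlated with each other at 0.987.

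**Figure D3:**
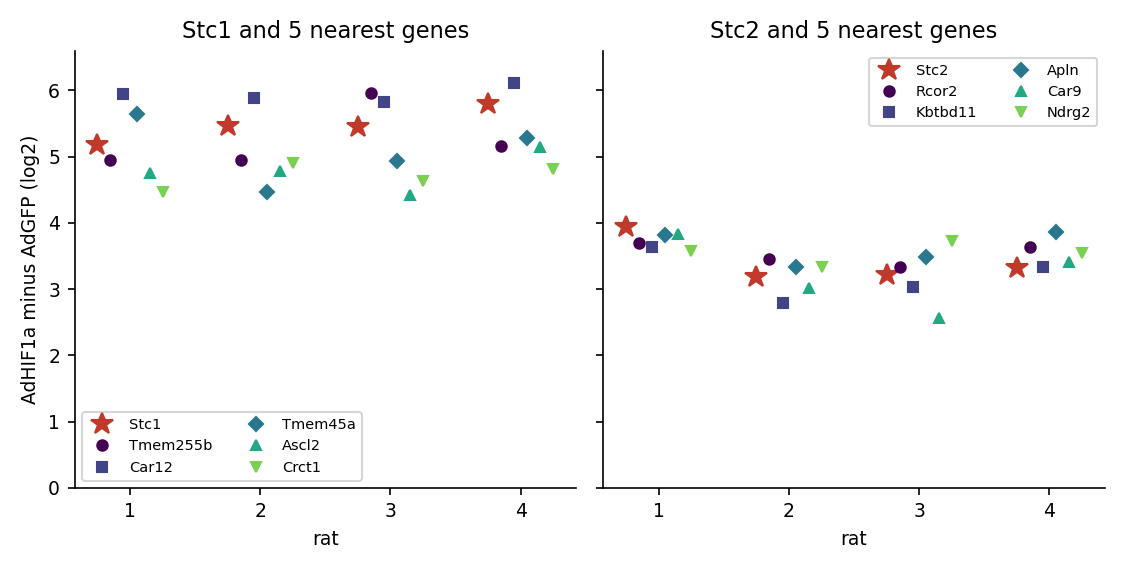
Within-rat difference AdHIF1a minus AdGFP in log2 units (vertical axis) in rats 1 to 4 for Stc1 (left, stars) and Stc2 (right, stars) and the 5 genes nearest to each. Points of 1 rat are set side by side; Stc1 lies between 5.18 and 5.79 and Stc2 between 3.19 and 3.94.

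Upstream sequence is shown for Stc2 because hypoxia-inducible factors bind a short core, ACGTG or GCGTG, near many of their target genes. From the promoter windows of RefSeq (GRCr8), which run from 250 bases before to 50 bases after a gene's start, the 250 bases before the start of Stc2 lie at chr10:16755258-16755507 on the plus strand. The lines for Car12 and Car9, which were among the genes most like Stc1 and Stc2, are stretches of 30 bases around a match, at chr8:76169817-76169846 and chr5:62559012-62559041, both on the plus strand. Capitals mark ACGTG or GCGTG on either strand. The marked matches of Car12 begin 10 and 15 bases after its annotated start, and that of Car9 begins 1 base after. Neither line therefore shows a match upstream of the start.
Stc2: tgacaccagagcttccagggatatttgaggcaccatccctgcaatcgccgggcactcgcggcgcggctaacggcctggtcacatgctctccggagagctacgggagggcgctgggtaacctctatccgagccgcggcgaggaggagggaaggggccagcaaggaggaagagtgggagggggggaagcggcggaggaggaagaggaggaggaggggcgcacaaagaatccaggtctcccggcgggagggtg
Car12: cacaaccgACGTGCACGCtttggtcccagg
Car9: cttatttccgatgCACGTacagcccgtcca

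The whole 300-base window of Stc2 held 0 matches to either core. The window of Car12 held 4 matches and that of Car9 held 1. Of the 16 genes most like a stanniocalcin gene, 9 had a window in the table, and 4 of these held a match, against 42.9% of 27457 windows overall (19.7% with ACGTG and 31.1% with GCGTG). A palindromic CACGTG counts on both strands. A window without these letters says nothing of sites elsewhere around the gene. The starts are those of the annotation, and whether transcription begins there was not tested. Bases before a start may therefore also be transcribed.

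In chromosome order (RefSeq, GRCr8), Stc1 on chromosome 15 is followed by genes that were also higher in AdHIF1a wells. Of the 5 measured genes after it, 3 were called higher, and of the 5 before it, 0 were called. This limma fit, with the rat as a block, called 5.68% of all genes higher and 7.77% lower at an adjusted p under 0.05 (1032 and 1411 genes, against 635 and 1324 after median centring). Before Stc1, Nefl (means 4.95 and 4.78), Nefm (3.35 and 3.43), Adam7 (3.83 and 3.82) and Adamdec1 (3.19 and 2.95) lay below all array medians (5.00 to 5.20). The lack of a call for these genes therefore says little. Slc25a37, which encodes the mitochondrial iron importer mitoferrin, rose by 1.28 ± 0.15 (SE; adjusted p = 0.00695), from signals of 7.77 to 8.46 in AdGFP wells to 9.03 to 9.65. Synb, an envelope-derived syncytin gene, rose by 1.07 ± 0.16 (adjusted p = 0.0145) from a low signal of 4.07 to 4.67. Loxl2, in place 34 by difference, rose by 2.72 ± 0.11 (adjusted p = 0.000592), from 6.54 to 6.99 up to 9.35 to 9.52.

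The measured genes nearest to Stc1 were not called. Adam28, a metalloprotease gene and its nearest measured neighbour before, differed by -0.43 ± 0.15 (limma adjusted p = 0.143), Adamdec1 by -0.25 ± 0.12 (0.280) and the homeobox gene Nkx2-6, the nearest measured gene after it, by 0.26 ± 0.11 (0.188). The next measured gene before Stc1 after Adam28 is several unmeasured genes away, so the 5 places on either side do not span equal distances. Synb was no longer called without rat 2 (adjusted p = 0.0769) or without rat 4 (0.0813), whereas those of Slc25a37 and Loxl2 held in every fit that left out 1 rat.

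Around Stc2 on chromosome 10, 0 of 10 measured neighbours rose and 1 fell, where 5.68% of all genes were called higher and 7.77% lower. Cpeb4, an RNA-binding protein gene, fell by 0.65 ± 0.09 (limma adjusted p = 0.0120), a call lost without rat 2 (0.0703) or rat 4 (0.0708). Bod1, the nearest measured gene before Stc2, differed by -0.08 ± 0.13 (adjusted p = 0.758), Nkx2-5, the nearest after it, by 0.16 ± 0.12 (0.465) and Atp6v0e1, a proton pump subunit gene, by -0.22 ± 0.08 (0.173). Atp6v0e1 was called with the trended prior (adjusted p = 0.0346), and its other probe set differed by -0.02. The median difference of the 10 neighbours was -0.17, against 0.17 for those of Stc1 and -0.005 for all genes.

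**Figure D4:**
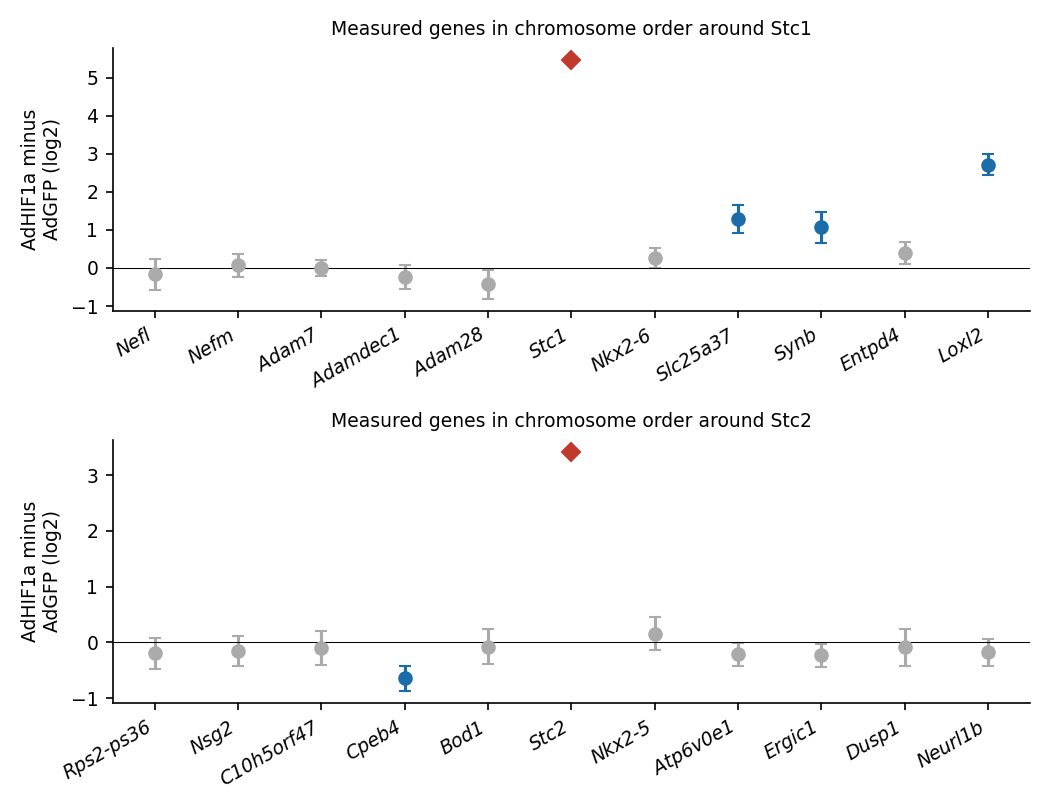
Difference AdHIF1a minus AdGFP in log2 units (vertical axis) for the 5 measured genes on each side of Stc1 (top) and Stc2 (bottom), in chromosome order and not to distance. Bars are 95% confidence intervals of the limma fit, blue marks genes with an adjusted p under 0.05, and red diamonds mark the stanniocalcin genes; Loxl2 (2.72), Slc25a37 (1.28) and Synb (1.07) stand above 0 after Stc1.

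Of 87 measured genes in 5 lists linked to stanniocalcin biology, 15 rose and 8 fell, or 26.4%, where 13.4% of all genes were called in either direction. The counts are read list by list below, with differences ± SE and adjusted p from the same limma fit.

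The protease that stanniocalcins inhibit rose slightly. Pappa, which encodes PAPP-A, had AdGFP signals of 5.00, 4.84, 5.02 and 4.94 in rats 1 to 4 and AdHIF1a signals of 6.20, 5.74, 5.46 and 5.52. The groups did not overlap, all AdGFP wells being near the array medians (5.00 to 5.20), and the difference was 0.78 ± 0.15 (limma adjusted p = 0.0257). Its homologue Pappa2 differed by 0.04 ± 0.10 (adjusted p = 0.838) at a signal of 3.92, below all array medians.

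Igfbp4 and Igfbp5, which are among the binding proteins that PAPP-A is known to cut, did not pass the test, whereas Igfbp2 did. Igfbp4 differed by 0.05 ± 0.15 (limma adjusted p = 0.881, 95% interval -0.33 to 0.42) and Igfbp5 by -0.17 ± 0.08 (0.256). Igfbp5 was dim, with means of 4.70 in AdGFP and 4.53 in AdHIF1a wells, below all array medians, so its lack of a call says little. In the whole PAPP-A and IGF list, 4 of 17 measured members rose, 0 fell and 13 did not pass (23.5% called, against 13.4% of all genes), with a median difference of 0.08. Besides Pappa, those that rose were Igfbp2, an IGF binding protein (2.03 ± 0.25, adjusted p = 0.00807), Igfbp1, another one (0.48 ± 0.09, 0.0237), and the adaptor of insulin and IGF receptors Irs2 (0.59 ± 0.10, 0.0192). Igfbp1 was dim, at 4.42 to 4.58 in AdGFP wells, below all array medians, and at 4.81 to 5.18 in AdHIF1a wells. The IGF receptor gene Igf1r differed by 0.24 ± 0.11 (adjusted p = 0.218).

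The counts of this list depended on the rats. Without rat 1, 5 members rose, and without rat 2, 3 or 4 only Igfbp2 was still called. Pappa then had adjusted p = 0.121, 0.0514 and 0.0908, Igfbp1 0.124, 0.0736 and 0.118, and Irs2 0.0847, 0.0661 and 0.0778. Pappa was also lost with quantile normalization (0.0604), and Pappa, Igfbp1 and Irs2 with median centring (0.0503, 0.0747 and 0.0570), which left 1 call.

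Genes of store-operated calcium entry and of calcium stores were lower where they passed: 5 of 20 measured members fell, 0 rose and 15 did not pass (25% called, against 13.4% of all genes, median difference -0.15). Orai1, the pore subunit of the calcium release-activated channel, had AdGFP signals of 9.49, 9.31, 9.22 and 9.52 and AdHIF1a signals of 9.03, 8.98, 8.67 and 8.82 in rats 1 to 4. All AdHIF1a wells lay below all AdGFP wells, and Orai1 fell by 0.51 ± 0.10 (limma adjusted p = 0.0261). Stim1, the calcium sensor that opens this channel, differed by -0.26 ± 0.14 (adjusted p = 0.294).

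The other lower genes were Itpr1, a calcium release channel of the endoplasmic reticulum (-0.74 ± 0.11, limma adjusted p = 0.0128), the calcium pump gene Atp2a3 (-0.66 ± 0.10, 0.0147), Saraf, an inhibitor of calcium entry (-0.53 ± 0.08, 0.0155), and Mcu, the mitochondrial calcium uniporter (-0.59 ± 0.11, 0.0226). The other probe set of Saraf differed by -0.68. Casr, the calcium-sensing receptor, stayed below all array medians (4.01 and 4.02) with a difference of 0.01 ± 0.12 (adjusted p = 0.970). With 1 rat left out, calls over all genes were also fewer (2006, 561, 1117 and 625 without rats 1 to 4, against 2443). Without rat 1 the list had 4 calls, without rat 2 or rat 4 it had 0, and without rat 3 it had 1. Orai1 was lost in each of these fits (adjusted p = 0.0570, 0.0843, 0.0975 and 0.120 without rats 1 to 4). Without rats 2 and 4, Itpr1 had 0.0750 and 0.0720, and without rats 2, 3 and 4 Atp2a3 had 0.0688, 0.0506 and 0.0767, Saraf 0.0948, 0.0644 and 0.0790, and Mcu 0.109, 0.0689 and 0.114.

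Among 15 measured genes of phosphate and calcium transport and its hormones, 1 rose and 1 fell (13.3% called, near the 13.4% of all genes). Means of Slc34a1, Slc34a3, Trpv5, Trpv6, Calb1, Cyp24a1, Pth1r, Fgf23 and Kl lay below all array medians under both viruses. In AdGFP wells they were 3.44 (Trpv5) to 4.93 (Pth1r), so the lack of a call for these genes says little. Vdr, the vitamin D receptor, fell by 0.98 ± 0.09 (limma adjusted p = 0.00418), from 7.52 to 7.94 in AdGFP wells to 6.61 to 6.85. S100g, which encodes the calcium carrier calbindin-D9k, rose by 0.67 ± 0.10 (adjusted p = 0.0127), a call lost without the rat as a block (0.0798), with the rat as a random block (0.0580), and without rat 2 (0.0645) or rat 4 (0.0730). Slc34a2, the sodium-phosphate cotransporter of ATII cells, had AdGFP signals of 10.65, 9.15, 10.19 and 9.60 and AdHIF1a signals of 9.71, 9.09, 9.33 and 8.17. These groups overlapped and the difference of -0.82 ± 0.22 was not called (adjusted p = 0.0700), except without rat 2 (0.0465), with median centring (0.0347), with the filter on dim probe sets (0.0463), with the trended prior (0.0455) and in the fit on 1 probe set per gene (0.0262).

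In the list of mitochondrial uncoupling and superoxide defence, 1 of 12 rose and 2 fell (25% called, against 13.4% of all genes, median difference -0.13). Ucp2, the uncoupling protein through which STC1 has been reported to act in mouse macrophages, had AdGFP signals of 11.84, 12.05, 11.98 and 12.03 and AdHIF1a signals of 11.32, 11.42, 11.60 and 11.30. The groups did not overlap, and Ucp2 fell by 0.57 ± 0.10 (limma adjusted p = 0.0195) from a high level. Hmox1, the inducible heme oxygenase, rose by 1.88 ± 0.09 (adjusted p = 0.000957), or 3.69-fold. Ppargc1a, a coactivator of mitochondrial genes, fell by 0.56 ± 0.11 (adjusted p = 0.0314), to a mean of 4.68 in AdHIF1a wells, below all array medians. Ucp2 was lost without rat 2 (0.106) or rat 4 (0.100), and Ppargc1a without the rat as a block (0.0623) and without rat 2 (0.145), rat 3 (0.112) or rat 4 (0.142), so that the list had 1 call without rat 2 or rat 4. Over all genes, calls fell from 2443 to 561 without rat 2 and to 625 without rat 4.

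The ATF4 and unfolded protein response list, to which STC2 is linked, had 9 of 23 measured members higher and 0 lower (39.1% called, against 13.4% of all genes, median difference 0.20). Vldlr, a lipoprotein receptor gene known as a target of both ATF4 and HIF1, rose by 2.83 ± 0.11 (limma adjusted p = 0.000592), from 8.43 to 9.10 in AdGFP wells to 11.27 to 11.63. Ero1a, the oxidase of the endoplasmic reticulum and also a known HIF target, rose by 1.98 ± 0.14 (0.00222). Trib3, a pseudokinase induced by ATF4, rose by 1.77 ± 0.09 (0.00109), from 8.05 to 8.55 up to 9.82 to 10.49, and Atf3, a stress-induced transcription factor, by 0.95 ± 0.11 (0.00683).

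Atf4 itself had AdGFP signals of 11.49, 11.27, 11.41 and 11.28 and AdHIF1a signals of 11.74, 11.83, 11.67 and 11.78. It was higher in 4 of 4 rats, by 0.39 ± 0.10, just outside the threshold (limma adjusted p = 0.0559). It passed when the block was dropped (0.0146) or made random (0.0117), with quantile normalization (0.0463), the filter on dim probe sets (0.0288), the trended prior (0.0138) and the fit on 1 probe set per gene (0.0226). Atf4 did not pass with median centring (difference 0.31, adjusted p = 0.149) or the mean of all probe sets (0.0560). Nor did it pass without rats 1 to 4 (0.0714, 0.229, 0.115 and 0.218). Ddit3, which encodes CHOP, rose by 0.79 ± 0.16 (0.0297), a call lost without rat 1 (0.0777), rat 2 (0.107) or rat 4 (0.127). Hspa5, the chaperone BiP that marks unfolded protein stress, differed by -0.14 ± 0.08 (0.342, 95% interval -0.34 to 0.06). Without rats 1 to 4 the list had 6, 4, 6 and 4 higher members, with 1 lower member without rat 1, and Vldlr, Ero1a, Trib3 and Atf3 were called in each. Over all genes, 775, 315, 517 and 324 were called higher in these fits, against 1032 with all rats.

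**Figure D5:**
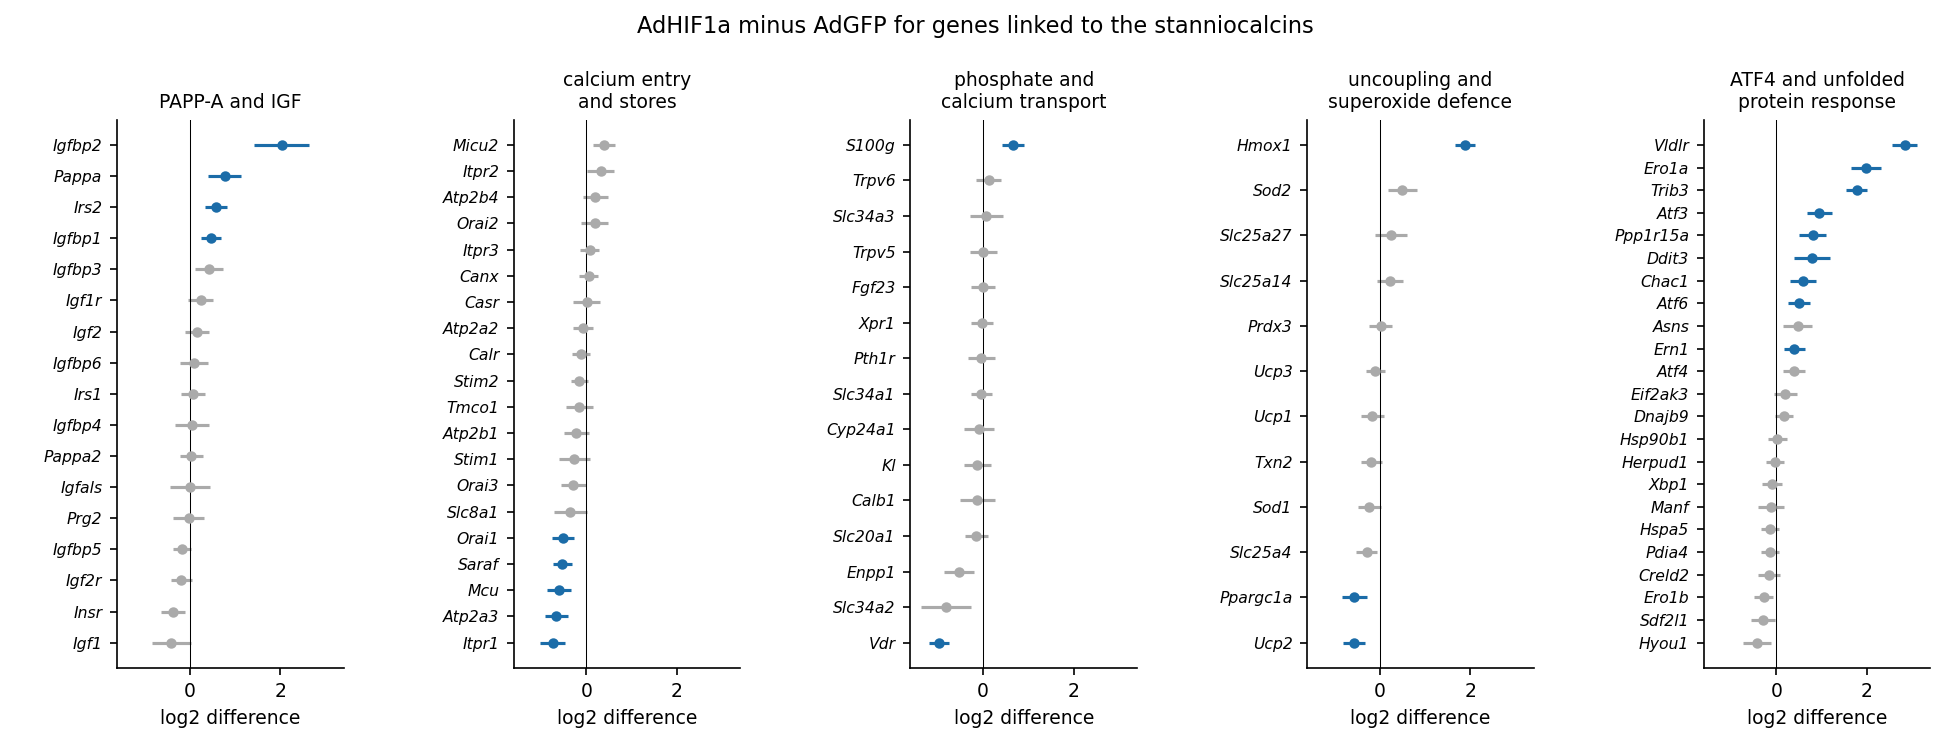
Difference AdHIF1a minus AdGFP in log2 units (horizontal axis) of the 87 measured genes in 5 lists linked to stanniocalcin biology. Points are differences, bars 95% confidence intervals of the limma fit, and blue marks an adjusted p under 0.05: 4 of 17, 5 of 20, 2 of 15, 3 of 12 and 9 of 23 members from left to right.

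Markers of ATII cells were bright, with the surfactant gene Sftpc at 12.34 in AdGFP and 12.62 in AdHIF1a wells. Of 9 measured ATII markers 2 rose, Sftpa1 by 0.89 and Sftpb by 0.69, and 3 fell, Napsa by 1.52, Lpcat1 by 0.80 and Lamp3 by 0.78. That is 55.6% called, where 13.4% of all genes were called in either direction. The type I markers Ager and Pdpn were also bright in AdGFP wells (12.55 and 12.28) and fell by 1.08 and 1.44. The club cell marker Scgb1a1 was also bright under both viruses (12.65 and 12.68), with a difference of 0.04 ± 0.11 (limma adjusted p = 0.881). The other club cell markers, Scgb3a2 (means 3.72 and 3.88) and Cyp2f4 (4.44 and 4.46), lay below all array medians. Of 44 measured markers of type I, fibroblast, endothelial, macrophage, ciliated or club, mesothelial and lymphocyte lineages, 0 rose and 11 fell. The same fit called 5.68% of all genes higher and 7.77% lower. The lower markers were 6 of 8 for type I cells, 1 of 8 for fibroblasts (Fn1) and 1 of 6 for endothelium (Esam). They were 1 of 8 for macrophages (Adgre1), 1 of 5 for ciliated and club cells (Tekt1) and 1 of 4 for mesothelium (Lrrn4). Lymphocytes had 0 of 5. The log2 of the summed type I signals was 13.62 to 14.12 in AdGFP wells and 12.45 to 13.17 in AdHIF1a wells. For fibroblasts it was 11.53 to 11.99 and 9.85 to 11.29, a sum carried by Fn1 (means 11.70 and 10.18), while the means of the other 7 fibroblast markers lay between 2.66 and 5.86. For endothelium it was 9.52 to 10.06 and 8.88 to 9.21, carried by Esam (means 9.68 and 8.75). Means of Tek, Tie1, Vwf and Cldn5 were 4.02 to 4.31. Cdh5 (means 5.18 and 5.41) was higher in 4 of 4 rats and was not called (limma adjusted p = 0.217). For macrophages the log2 of the summed signals was 9.68 to 10.58 and 9.01 to 10.48. The part of these marker changes in the lower genes above was not tested, and fewer cells of a type and less RNA per cell cannot be told apart. The rat Hif1a probe set was lower in AdHIF1a wells (10.65 against 11.13 in AdGFP wells), and the sources used here do not say whether it detects the transgene.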

How the data were processed

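Total RNA of 8 wells was measured on Affymetrix arrays. The deposited values are log2 signals for 36685 probe sets, made by the authors with Affymetrix Expression Console, per the submitters' processing notes. The sources used here name no algorithm, version or build. That the scale is log2 follows from the range of the values (1.42 to 13.57). Array medians (5.00 to 5.20) and upper quartiles (7.62 to 7.68) show a common scale, which would hide a general rise or fall. Precision is limited by the number of arrays.

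Names came from the platform annotation, in which 18511 probe sets carried 1 symbol, 575 several and 17599 none, and 18394 identifiers matched RefSeq (GRCr8). The brightest probe set stood for a gene, leaving 18166 genes. All probe sets were fitted with limma 3.58.1 in R 4.3.3 (lmFit, eBayes), with virus and rat as terms. Benjamini-Hochberg adjustment ran over the 18166 genes, with calls at an adjusted p under 0.05. The procedure was tested on simulated data. Pairing comes from the series' design: deviations of wells of 1 rat correlated at 0.18 to 0.26 across genes, and those of wells of different rats and viruses at -0.22 to 0.08.

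The members and lists were chosen with earlier results of these data known. Of 93 list entries 87 were measured; the others were not analysed here. Named genes were the 4 called members of each list with the smallest adjusted p and the called member with the largest difference, or the 2 with the smallest p in a list with no call, 14 genes named whatever their result, the nearest 2 measured neighbours on each side and any other called one among 5, the 5 most alike genes by each measure and the genes next in rank. Alternatives were no block, a random block, quantile normalization, median centring, a filter on probe sets below the median, the mean of all probe sets, a trended and robust prior, and the omission of each rat. A fit on 1 probe set for each of the 18166 genes, in place of all probe sets, was added after seeing the data.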

Additional observations from a re-analysis of the deposited data

Results flagged for a closer look

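Among the named genes, 114 groups of 4 wells were examined for a well whose gap to the nearest other, over the group's range, passed Dixon's 95% critical value, and 6 had one; chance gives about 1 in 20. Neither Stc1 nor Stc2 was among them. Atf3 read 9.69 in the AdGFP well of rat 1, against 8.85 to 8.97 in the other AdGFP wells. Pappa2 read 3.78 in the AdGFP well of rat 1, against 3.96 to 3.98, and 4.26 in the AdHIF1a well of rat 3, against 3.83 to 3.90. Nkx2-6 read 5.18 in the AdGFP well of rat 2, against 5.4 to 5.44. In the AdHIF1a well of rat 3, Ndrg1 read 12.94, against 13.06 to 13.07, and Plod2 read 10.41, against 10.54 to 10.55.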

How the results depend on the processing

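The mean difference of Stc1 was 5.37 to 5.57 and that of Stc2 3.24 to 3.49 under quantile normalization, median centring, the mean of all probe sets and the omission of each rat, and their gap was 1.92 to 2.33; none moved by more than the SD over rats. The total of called genes was 2443, 3674 in the fit on 1 probe set per gene, and 561 to 2006 with 1 rat left out, lowest without rat 2. Higher and lower calls were 1032 and 1411, 635 and 1324 after median centring, and 315 and 246 without rat 2. Calls between rats were 0, but 4 after median centring, 1 with the trended and robust prior and 5 in the fit on 1 probe set per gene. With 1 rat left out, calls were 1 to 5 in the PAPP-A and IGF list, 0 to 4 in the calcium entry list, 1 to 2 in the phosphate list, 1 to 3 in the uncoupling list, 4 to 7 in the ATF4 list and 2 to 4 among the 20 neighbours. Median centring left 1 call in the PAPP-A and IGF list. The phosphate list had 4 calls after median centring, with the filter on dim probe sets, with the trended prior and in the fit on 1 probe set per gene. With the trended prior the uncoupling list had 5 calls and the neighbours 7. Without the replicate block the total was 2951, and the lists had 4, 6, 2, 2 and 11 calls and the neighbours 5; beyond the losses of S100g and Ppargc1a and the gain of Atf4 it changed no call of a named gene. No named gene's call changed sign under any alternative run. The causes were not tested. Fewer rats leave fewer residual degrees of freedom.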

Other observations

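Loxl2 appears on both sides of the description above. It is the fifth measured gene after Stc1 on chromosome 15, and its signals over the 8 arrays are among the 5 most correlated with Stc2 (r = 0.994), which lies on chromosome 10. Its within-rat differences were 2.98, 2.65, 2.75 and 2.49 in rats 1 to 4, largest in rat 1, as for Stc2. Since the correlation with Stc2 singled it out, that likeness is no separate result. Rcor2, nearest to Stc2 by distance, has another probe set that differed by 3.01, against 3.53 for the one used.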
